A study of Rattus norvegicus with 91 samples.

Results

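Heat shock proteins and chaperones were followed in the ventral tegmental area (VTA), the midbrain region that holds dopamine neurons projecting to the forebrain, of 5 pairs of rat lines bred for high or low voluntary alcohol consumption. The members were 37 genes listed by symbol: HSP70, HSP110, HSP90, DNAJ and small heat shock proteins, the chaperones of the endoplasmic reticulum and mitochondria, several co-chaperones and the heat shock factor Hsf1. Every probe set that the array's annotation assigns to exactly 1 of these symbols was used, which gave 48 probe sets of 34 genes among 31099 probe sets, 14217 single genes and 91 arrays in the series. Hspa1b, Hspa8 and Hsp90aa1 had no such probe set. Of the 34 genes, 24 had 1 probe set and 10 had several, up to 4 for Hspa9.

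The groups were the lines HAD1 (8 arrays) and LAD1 (10), HAD2 (8) and LAD2 (9), P (9) and NP (10), AA (10) and ANA (10), and sP (8) and sNP (9), where the first of each pair consumes more alcohol. Each array held RNA from the VTA of 1 rat, amplified in 2 cycles from 25 ng of total RNA and hybridised to an Affymetrix rat array. The sources used here do not state age, sex or any exposure to alcohol. Each line is a single breeding population, so selection for alcohol consumption and chance fixation of alleles in a line cannot be told apart, and p-values measure the spread between animals of these lines only. In whole tissue, fewer cells of a type and less RNA per cell cannot be told apart either.

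Chaperones bind unfolded or partly folded proteins and keep them from aggregating. HSP70 proteins cycle between substrate-bound and free states with ATP, DNAJ proteins deliver substrates and stimulate the ATPase, HSP110 proteins act as nucleotide exchange factors, and BAG proteins do the same in other complexes. Under proteotoxic stress Hsf1 is released from chaperones, binds heat shock elements and induces Hspa1a, Dnajb1, Hsph1, Hspb1 and Bag3. The endoplasmic reticulum has its own set, led by Hspa5 and Hsp90b1, under the unfolded protein response.

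The sequence context of the members is shown by RefSeq promoters (build GRCr8), for which 30 of the 37 genes matched. Windows of 300 bases, 250 before to 50 after the annotated start, were searched on both strands for 2-unit heat shock elements, GAANNTTC and TTCNNGAA, for the 3-unit element in which GAANNTTC runs on into TTCNNGAA with the unit TTC shared, and for the endoplasmic reticulum stress element, CCAAT and CCACG with 9 bases between them. Each 3-unit match is thus also a match of both 2-unit forms. The 3-unit element was found in 5 of the 30 member promoters (16.7%: Dnaja1, Hspa8, Hspd1, Hspe1 and Hsph1) and in 0.798% of 33469 rat promoters of the same length. GAANNTTC was present in 12 member promoters (40%, against 8.59% of all) and TTCNNGAA in 10 (33.3%, against 8.77%). The stress element was present in Dnajc3, Hsp90b1 and Hspa5 (10% of members, 0.0657% of all promoters). A match is a description of these letters and not a binding site.

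The 250 bases before the start are printed for the 5 genes with a probe set that differed in at least 1 line pair and that have a promoter entry: Hspa1a (chr20:3859506-3859755, plus strand), Dnajb1 (chr19:41431142-41431391, minus strand), Hspa4 (chr10:37949836-37950085, minus strand), Hspa9 (chr18:26828399-26828648, minus strand) and Dnajb6 (chr4:6232005-6232254, minus strand). Hsph1 (chr12:10427118-10427367, plus strand) and Hspa5 (chr3:38452766-38453015, plus strand) were added after the matches were seen, because they hold the 3-unit and the stress element. Each sequence runs 5′ to 3′ on the gene's strand, and capitals mark the matches.
Hspa1a: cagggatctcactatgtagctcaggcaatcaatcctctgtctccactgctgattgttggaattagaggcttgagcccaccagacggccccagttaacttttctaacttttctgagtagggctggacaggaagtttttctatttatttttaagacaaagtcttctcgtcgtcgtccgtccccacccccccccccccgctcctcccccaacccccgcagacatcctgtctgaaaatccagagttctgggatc
Dnajb1: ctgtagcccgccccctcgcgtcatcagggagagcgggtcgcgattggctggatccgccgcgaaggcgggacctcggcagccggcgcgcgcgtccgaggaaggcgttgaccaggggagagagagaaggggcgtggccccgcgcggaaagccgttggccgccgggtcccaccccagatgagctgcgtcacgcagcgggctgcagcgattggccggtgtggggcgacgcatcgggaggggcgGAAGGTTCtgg
Hspa4: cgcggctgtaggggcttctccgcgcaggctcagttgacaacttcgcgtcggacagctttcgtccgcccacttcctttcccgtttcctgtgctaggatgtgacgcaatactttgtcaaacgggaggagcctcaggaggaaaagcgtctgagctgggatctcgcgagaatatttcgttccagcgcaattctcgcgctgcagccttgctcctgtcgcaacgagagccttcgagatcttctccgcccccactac
Hspa9: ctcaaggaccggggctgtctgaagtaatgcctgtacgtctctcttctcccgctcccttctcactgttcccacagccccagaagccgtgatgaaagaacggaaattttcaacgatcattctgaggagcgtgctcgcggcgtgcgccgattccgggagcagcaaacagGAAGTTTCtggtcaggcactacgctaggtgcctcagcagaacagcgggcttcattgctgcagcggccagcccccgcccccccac
Dnajb6: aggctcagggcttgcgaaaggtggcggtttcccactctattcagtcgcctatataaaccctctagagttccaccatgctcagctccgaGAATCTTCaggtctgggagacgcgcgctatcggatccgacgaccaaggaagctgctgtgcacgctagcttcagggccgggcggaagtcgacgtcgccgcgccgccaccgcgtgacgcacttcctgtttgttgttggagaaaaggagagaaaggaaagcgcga
Hsph1: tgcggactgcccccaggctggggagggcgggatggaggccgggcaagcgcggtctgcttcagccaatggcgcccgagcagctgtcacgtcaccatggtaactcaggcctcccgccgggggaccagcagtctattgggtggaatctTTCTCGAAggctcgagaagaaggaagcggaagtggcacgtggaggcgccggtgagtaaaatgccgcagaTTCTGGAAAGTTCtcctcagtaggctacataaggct
Hspa5: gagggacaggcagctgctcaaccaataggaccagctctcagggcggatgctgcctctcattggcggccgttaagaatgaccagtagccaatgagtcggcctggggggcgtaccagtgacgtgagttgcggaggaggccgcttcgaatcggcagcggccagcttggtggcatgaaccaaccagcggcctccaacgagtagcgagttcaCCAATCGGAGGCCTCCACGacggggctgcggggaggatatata
The printed windows of Hspa1a and Hspa4 hold no match, and neither do their 50 bases after the start. A missing match concerns only these exact letters near the annotated start and does not show that a gene lacks heat shock elements. Dnajb1 has GAANNTTC from -11 to -4 and again from 18 to 25 after the start, beyond the printed stretch. Hsph1 has the 3-unit element from -36 to -24, and Hspa5 has the stress element from -43 to -25.

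Array values are RMA signals on the log2 scale, so that a difference of 1 is a doubling of signal. Probe sets were tested where the highest of the 10 line means reached 7.02, the 40th percentile of all values, which kept 21185 probe sets and 43 member probe sets of 33 genes. The member probe sets just inside this floor were 1 of Dnajc5 (highest line mean 7.96) and 1 of Hspb8 (8.59), and those just outside were 1 of Dnajb5 (6.98) and 1 of Dnajb2 (6.68). The other probe sets left out were a second one of Dnajb5, one of Hspa9 and that of Hspa1l, a testis HSP70, so Hspa1l was the only measured gene with no test. In limma, 10 line means were fitted, and "adjusted p" is the Benjamini-Hochberg value over all 21185 probe sets of a comparison. Differences are the high-consumption line minus its own low-consumption line, with standard errors (SE), and levels were not compared between pairs.

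Several facts of the arrays precede the results. Th, which marks dopamine neurons, lay between 13.32 and 15.26 in the HAD, LAD, AA, ANA, sP and sNP arrays, but reached down to 9.12 in P and 8.23 in NP. The 3' minus 5' signal of Gapdh, a measure of RNA integrity and cDNA length, averaged 3.42 in HAD2 and 3.58 in LAD2, 1.89 in HAD1 and 1.78 in LAD1, and 0.136 to 0.567 in the other 6 lines. By their value distributions the arrays fell into 5 sets, and the arrays labelled AA 1, AA 19 and ANA 20 lay with the sets of other pairs, so whether the labels of the AA, ANA, P, NP, sP and sNP arrays are all in place was not tested. Among the HAD2 arrays, HAD2 5 was most often the highest in the members themselves. It was the highest HAD2 array for 37.2% of member probe sets and 15.4% of all probe sets. HAD2 6 was highest for 20.9% and 10.2%, also a larger share of members than of all probe sets. HAD2 9 was highest for 20.9% and 22.1%, so HAD2 5 did not lead over all probe sets. The calls in HAD2/LAD2, with values that moved, are also given without HAD2 5.

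HAD2 and LAD2 differed in more members than any other pair. Hspa1a, Hspa4, Dnajb1, Dnajb4 and Hsf1 were higher in HAD2 and 1 probe set of Hspa9 was lower, so 6 of the 43 member probe sets (13.95%) passed adjusted p 0.05, against 6.15% of all probe sets (3.38% higher and 2.76% lower). The members' median difference was 0.06 and that of all probe sets 0.01, and 32 of the 43 differences were positive. Without HAD2 5, 4 were higher and 1 lower (11.6%, against 6.12% of all probe sets, 3.43% higher and 2.68% lower), with a median of 0.07.

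**Figure D1:**
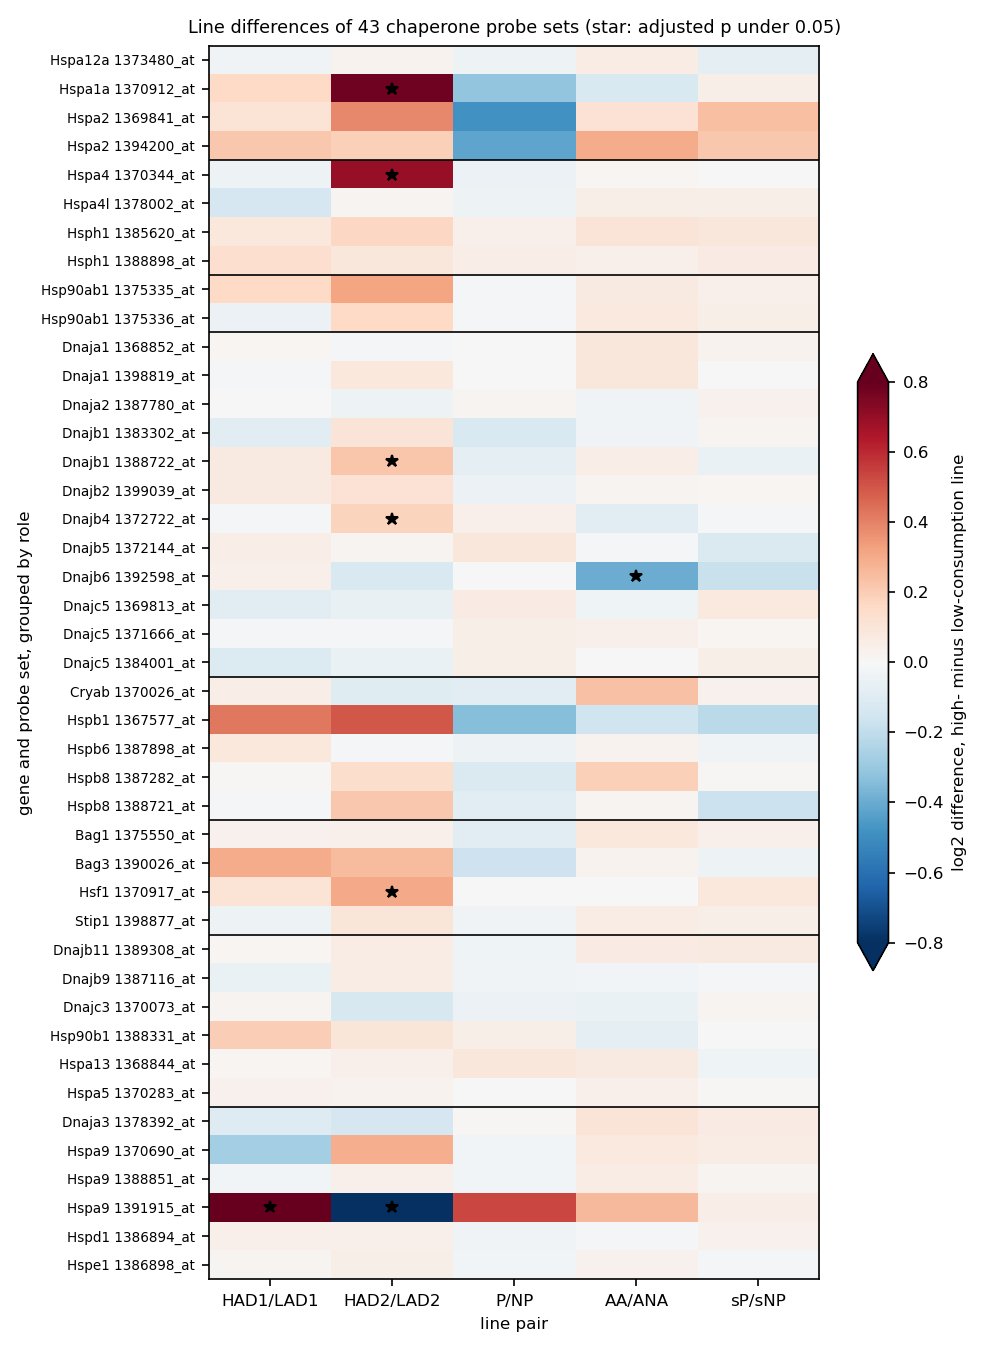
Difference in log2 signal (high- minus low-consumption line) of the 43 tested member probe sets (rows, grouped by role) in the 5 line pairs (columns), with a star where the limma adjusted p is under 0.05 and colours capped at 0.8 in either direction. Stars lie mostly in the HAD2/LAD2 column, and 1 Hspa9 probe set is red in HAD1/LAD1 and blue in HAD2/LAD2.

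Among the cytosolic HSP70 proteins, the stress-inducible Hspa1a had the largest rise. Its signal ran from 9.15 to 10.82 in HAD2 (median 9.52) and from 8.62 to 9.08 in LAD2 (median 8.94), so every HAD2 array lay above every LAD2 array. The difference was 0.78 ± 0.17 (SE, n = 8 and 9; 1.72-fold; limma adjusted p = 0.00087). HAD2 5 was the highest array at 10.82, and the other 7 reached 9.91 at most. Without it the lines still did not overlap and the difference was 0.61 ± 0.17 (1.53-fold; limma adjusted p = 0.0113). Of all probe sets, 2.04% had no overlap between HAD2 and LAD2 (2.41% without HAD2 5), and 2 of the 43 member probe sets did. Hspa1a and Hspa1b are near-identical copies, and their transcripts may not be told apart by this probe set. Hspa2, an HSP70 known best from testis, had differences of 0.39 and 0.19 at its 2 probe sets, and Hspa12a, a distant HSP70 relative, had 0.03 (0.42, 0.25 and -0.05 without HAD2 5); none passed the test.

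Hspa4, an HSP110-type exchange factor for HSP70, was also higher in HAD2. It ran from 9.27 to 11.09 in HAD2 (median 10.12) and from 7.87 to 10.20 in LAD2 (median 9.67), and the lines overlapped. The difference was 0.70 ± 0.15 (limma adjusted p = 0.000721), and 0.66 without HAD2 5 (adjusted p = 0.00281). The lowest array, LAD2 13 at 7.87, lay 1 log2 unit or more below the other LAD2 arrays, and without it the difference was 0.49 ± 0.13 (limma adjusted p = 0.00597). Fitted without the other lines, HAD2 and LAD2 gave an adjusted p of 0.223. The other HSP110 genes did not pass: Hsph1 had 0.17 and 0.09 at its 2 probe sets and Hspa4l 0.02 (0.14, 0.07 and -0.05 without HAD2 5).

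Hsf1, the transcription factor that induces heat shock genes, had the lowest adjusted p of the rises. HAD2 arrays lay between 7.93 and 8.53 (median 8.21) and LAD2 arrays between 7.68 and 8.10 (median 7.89), with a small overlap. The difference was 0.30 ± 0.06 (limma adjusted p = 4.1e-05), and 0.32 without HAD2 5 (adjusted p = 3.9e-05). Of the co-chaperones, Bag3 differed by 0.25 ± 0.26, Stip1, which links HSP70 to HSP90, by 0.10, and Bag1 by 0.04, and none passed. Without HAD2 5 the difference of Bag3 was 0.12 and that of Bag1 -0.01. Both probe sets of Hsp90ab1, the constitutive cytosolic HSP90, were higher without passing, by 0.16 ± 0.06 (limma adjusted p = 0.0692) and 0.31 ± 0.14 (adjusted p = 0.259), and by 0.16 and 0.28 without HAD2 5.

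Of 12 DNAJ probe sets of the cytosol and vesicles, 2 rose in HAD2 (3.38% of all probe sets did) and the median difference was 0.01. Without HAD2 5, 1 of the 12 rose (3.43% of all probe sets did). Dnajb4, a partner of cytosolic HSP70, ran from 12.78 to 13.08 in HAD2 (median 13.02) and from 12.68 to 12.92 in LAD2 (median 12.80), with a difference of 0.18 ± 0.04 (limma adjusted p = 0.00169), and 0.17 without HAD2 5 (adjusted p = 0.00539). The lowest HAD2 array was HAD2 2, and the other 7 lay between 12.99 and 13.08, above all LAD2 arrays. Dnajb1, the stress-inducible partner of Hspa1a, ran from 12.67 to 13.16 (median 12.79) in HAD2 and from 12.39 to 12.87 (median 12.67) in LAD2 at 1 probe set, with overlap. That difference was 0.22 ± 0.06 (limma adjusted p = 0.0162), and without HAD2 5 it was 0.18 and did not pass (adjusted p = 0.0829). It also failed to pass without HAD2 2, HAD2 3, LAD2 19 or LAD2 20. The second Dnajb1 probe set had a difference of 0.10 (limma adjusted p = 0.655). Dnaja1, Dnaja2, Dnajb2, Dnajb5, Dnajb6 and Dnajc5, the last a synaptic vesicle protein, did not pass, at -0.12 to 0.11.

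The small heat shock proteins, which hold unfolded proteins without ATP, did not pass in this pair. Hspb1 had the largest difference, 0.50 ± 0.19 (limma adjusted p = 0.126), with HAD2 arrays from 7.27 to 8.13 (median 7.62) and LAD2 arrays from 6.73 to 7.39 (median 7.16). The lines overlapped at their edges, and without HAD2 5 the difference was 0.43. Its adjusted p was 0.0065 in a fit of these 17 arrays only, and 0.0075 when the 4 HAD and LAD lines were fitted without the others. Cryab had a difference of -0.10, Hspb6 of -0.01, and the probe sets of Hspb8, a partner of Bag3, had 0.22 and 0.14 (0.10 and 0.09 without HAD2 5).

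**Figure D2:**
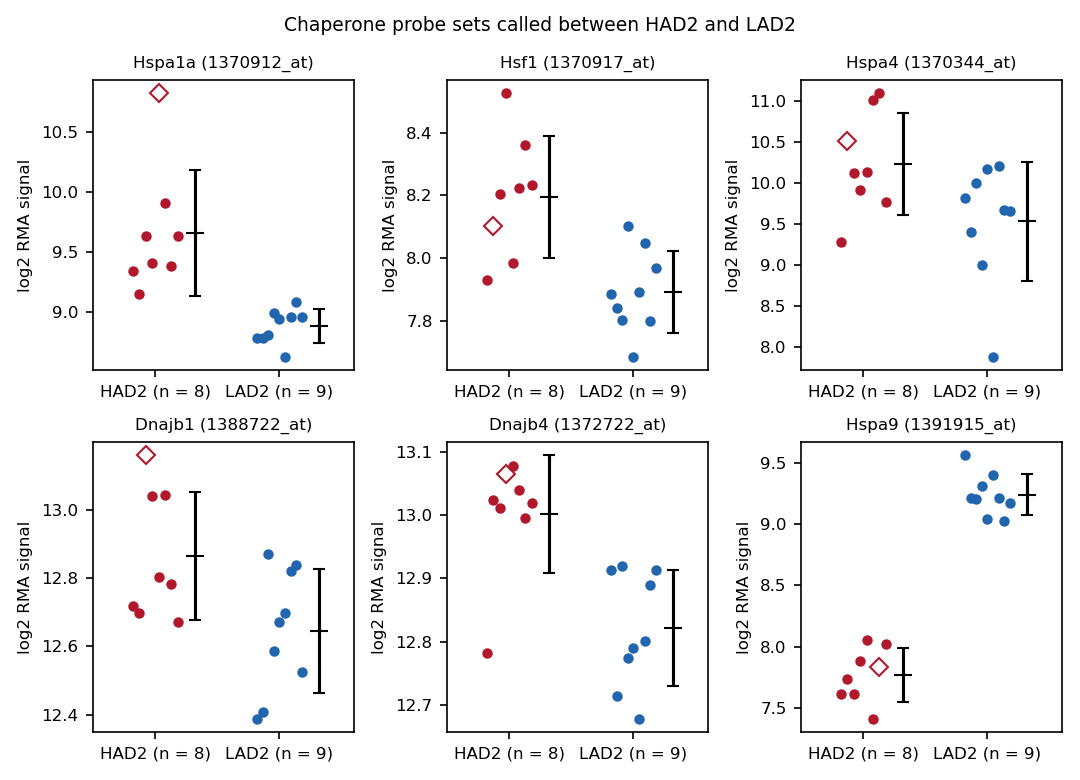
Log2 signal of the 6 member probe sets called in HAD2/LAD2, with 1 point per array (HAD2 n = 8, LAD2 n = 9), an open diamond for HAD2 5 and black mean ± SD. Hspa1a and the Hspa9 probe set have no overlap between the lines, while Hspa4, Hsf1, Dnajb4 and Dnajb1 overlap.

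Hspa9, the mitochondrial HSP70 that pulls proteins through the inner membrane and folds them in the matrix, was read by 3 tested probe sets that did not move together. At the probe set 1391915_at, HAD2 arrays lay between 7.41 and 8.05 (median 7.79) and LAD2 arrays between 9.03 and 9.56 (median 9.21). The lines were about 1 log2 unit apart at their nearest arrays. The difference was -1.47 ± 0.21 (2.77-fold lower in HAD2; limma adjusted p = 1.2e-07), and -1.48 without HAD2 5.

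In HAD1/LAD1 the same probe set went the other way. HAD1 arrays lay between 7.88 and 9.81 (median 9.16) and LAD1 arrays between 7.52 and 9.12 (median 7.93), with a difference of 0.997 ± 0.21 (limma adjusted p = 0.00044). Both lines held arrays at the other's level: HAD1 27 at 7.88 and HAD1 25 at 7.94 were low, and LAD1 37 at 9.12 was high, the next LAD1 array being at 8.26. Without LAD1 37 the difference was 1.12 ± 0.21 (limma adjusted p = 3.3e-05).

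The other Hspa9 probe sets gave other values. At 1370690_at the difference was 0.29 ± 0.10 in HAD2/LAD2 (limma adjusted p = 0.069) and -0.27 ± 0.10 in HAD1/LAD1 (adjusted p = 0.104), opposite in sign to 1391915_at in both pairs, and its lines overlapped in both. At 1388851_at the differences were 0.04 and -0.02. No direction for Hspa9 as a gene can therefore be given. Within lines, 1370690_at fell as the Gapdh 3' minus 5' signal of an array rose. The correlation of deviations from the line means was r = -0.70 in HAD2/LAD2 (n = 17; Spearman rho = -0.66) and r = -0.69 in HAD1/LAD1 (n = 18; rho = -0.59), each with a permutation adjusted p of 0.014 over 17 relations for r, but 0.082 and 0.099 for rho, and r = -0.66 and -0.56 without the 2 arrays farthest from the median. For 1391915_at, r was -0.0006 in HAD2/LAD2 and 0.55 (adjusted p = 0.097) in HAD1/LAD1. The other mitochondrial chaperones, Hspd1, Hspe1 and Dnaja3, had differences of 0.04, 0.05 and -0.14 in HAD2/LAD2, and none passed.

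**Figure D3:**
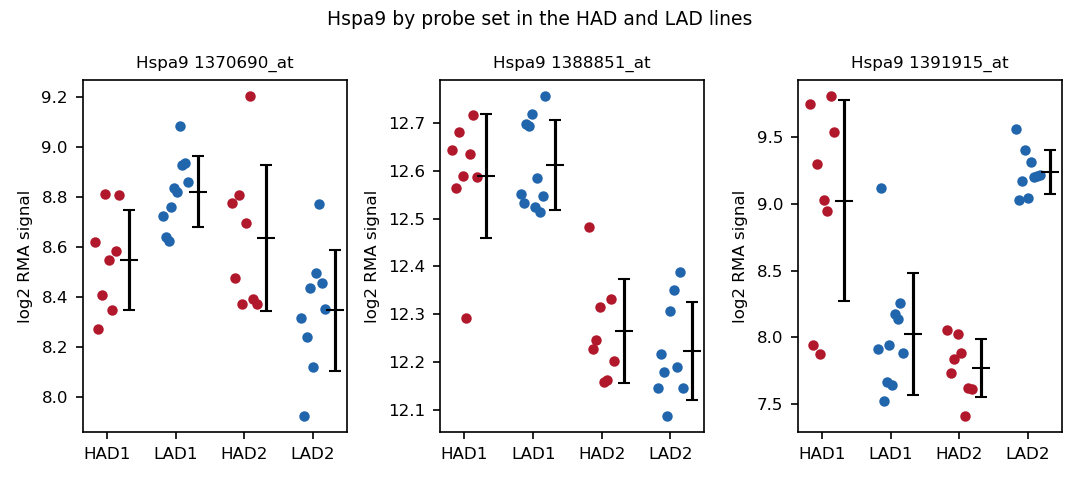
Log2 signal of 3 Hspa9 probe sets in HAD1 (n = 8), LAD1 (n = 10), HAD2 (n = 8) and LAD2 (n = 9), 1 point per array, with mean ± SD. 1391915_at is high in HAD1 and LAD2, from 7.88 to 9.81 and from 9.03 to 9.56, with 2 HAD1 arrays near 7.9, and the other probe sets do not share this order.

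None of the 6 members of the endoplasmic reticulum was called in HAD2/LAD2. Sdf2l1 and Hyou1, which belong to this compartment but are not members, were called and are given below. Differences of Hspa5, Hsp90b1, Hspa13, Dnajb9, Dnajb11 and Dnajc3 lay between -0.13 and 0.10. Hspa5, the main HSP70 of this compartment, differed by 0.03, with HAD2 arrays from 13.36 to 13.51 and LAD2 arrays from 13.15 to 13.53. In HAD1/LAD1, Hsp90b1 had 0.20 ± 0.06 (limma adjusted p = 0.0560).

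Apart from Hspa9, no member passed in HAD1/LAD1: 1 of 43 probe sets (2.33%) was called, against 4.92% of all probe sets (2.75% higher). The median difference was 0.02, and 27 of 43 were positive. Hspa1a ran from 9.18 to 9.60 in HAD1 and from 8.998 to 9.60 in LAD1, with a difference of 0.16 ± 0.17 (limma adjusted p = 0.83). Hsf1 differed by 0.11 ± 0.06 (adjusted p = 0.373) and Hspb1 by 0.42 ± 0.19 (adjusted p = 0.257), which passed when the 4 HAD and LAD lines were fitted alone (adjusted p = 0.0321). Hspa4, Dnajb4 and Dnajb1 had -0.04, -0.02 and 0.07 (-0.08 at the second Dnajb1 probe set).

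In AA/ANA, 1 member fell: Dnajb6, a DNAJ protein that holds back aggregation of polyglutamine proteins. Its arrays ran from 10.10 to 10.94 in AA (median 10.27) and from 10.41 to 11.13 in ANA (median 10.78), and they overlapped. The difference was -0.40 ± 0.10 (limma adjusted p = 0.00522). The 3 arrays that lay with other pairs were AA 1 at 10.12, AA 19 at 10.90 and ANA 20 at 11.13, and without all arrays outside their pair's main set the difference was -0.39 (limma adjusted p = 0.00733). A fit of the AA and ANA arrays only gave an adjusted p of 0.0924, which does not pass. In all, 1 of 43 member probe sets passed (2.33%), against 3.94% of all probe sets (1.77% lower), with a median difference of 0.04. Hspa1a had -0.12, and Cryab, the lens and glial small heat shock protein, 0.24 ± 0.09 (adjusted p = 0.179).

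No member was called by limma in P/NP or in sP/sNP, where 0% of all probe sets were called. At unadjusted p under 0.05 there were 3 member probe sets in P/NP, against 1273 of all 21185, and 0 in sP/sNP, against 241. The 241 in sP/sNP are a smaller share than the 0.05 expected when no probe set differs. With the spread shared by all 10 lines, the absence of calls does not show that sP and sNP are equal. In P/NP 30 of the 43 differences were negative, with a median of -0.02. Hspa1a ran from 7.05 to 9.44 in P and from 8.11 to 9.78 in NP (difference -0.31 ± 0.16), and the Hspa2 probe sets had -0.48 and -0.42. In sP/sNP the differences ran from -0.21 (Hspb1) to 0.24 (Hspa2), and Hspa1a ran from 7.399 to 7.91 in sP and from 7.44 to 7.90 in sNP.

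Whether a difference depended on the pair was asked with a moderated F test, which called 7 of the 43 member probe sets and 8.26% of all probe sets. These were Hspa9 1391915_at (limma adjusted p = 4.2e-09), Hspa1a (0.00628), Dnajb4 (0.00661), Hsf1 (0.0170), Hspa4 (0.0350), Hspb1 (0.0407) and Hspa9 1370690_at (0.0453). Without HAD2 5, Hspa4, Hspb1 and Hspa9 1370690_at did not pass. Hspa4 also did not pass without HAD2 6, HAD2 8, LAD2 13, LAD2 14 or LAD2 19 (adjusted p up to 0.149), and the calls of Hspb1 and 1370690_at, both near the threshold, were lost when any 1 of 25 and of 26 arrays, respectively, was left out. Hsf1 did not pass without HAD2 2 (adjusted p = 0.0682), and 1370690_at did not pass with the Gapdh signal as a covariate (adjusted p = 0.276). Averaged over the 5 pairs, only Hsf1 passed among the members, at 0.10 ± 0.02 (limma adjusted p = 0.0095), where 1.17% of all probe sets were higher. Its differences were 0.30, 0.11, 0.08, 0.00 and -0.00 in HAD2/LAD2, HAD1/LAD1, sP/sNP, AA/ANA and P/NP.

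The array HAD2 5 was the highest HAD2 array for 16 of the 43 member probe sets (37.2%), against 15.4% of all probe sets. For Hspa1a it lay at 10.82 against 9.15 to 9.91 in the others. It exceeded the mean of the other HAD2 arrays by 1.09 for Bag3 (10.59, others 9.14 to 10.10), by 0.90 for 1 Hspb8 probe set (10.40, others 8.94 to 10.02), by 0.63 for Hspa12a, by 0.57 for Hspb1 and by 0.56 for Hspa4l. Bag3 and Hspb8 are partners in clearing aggregates by autophagy. Hspa5 was not raised in it, at 13.37 against 13.36 to 13.51, and neither was 1 probe set of Hspa2, which was lowest in HAD2 5. The same array had the highest mean log2 signal of 12 glucocorticoid response genes in HAD2 (9.90, median of the HAD2 arrays 9.685). It had the lowest of 17 dopamine neuron markers (10.90, median 11.53, others up to 11.7) and of 11 microglia markers (8.11, median 8.26). In the other lists of cell types and states it was neither the highest nor the lowest HAD2 array. The part of any of these lists in the chaperone values of this array was not tested.

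**Figure D4:**
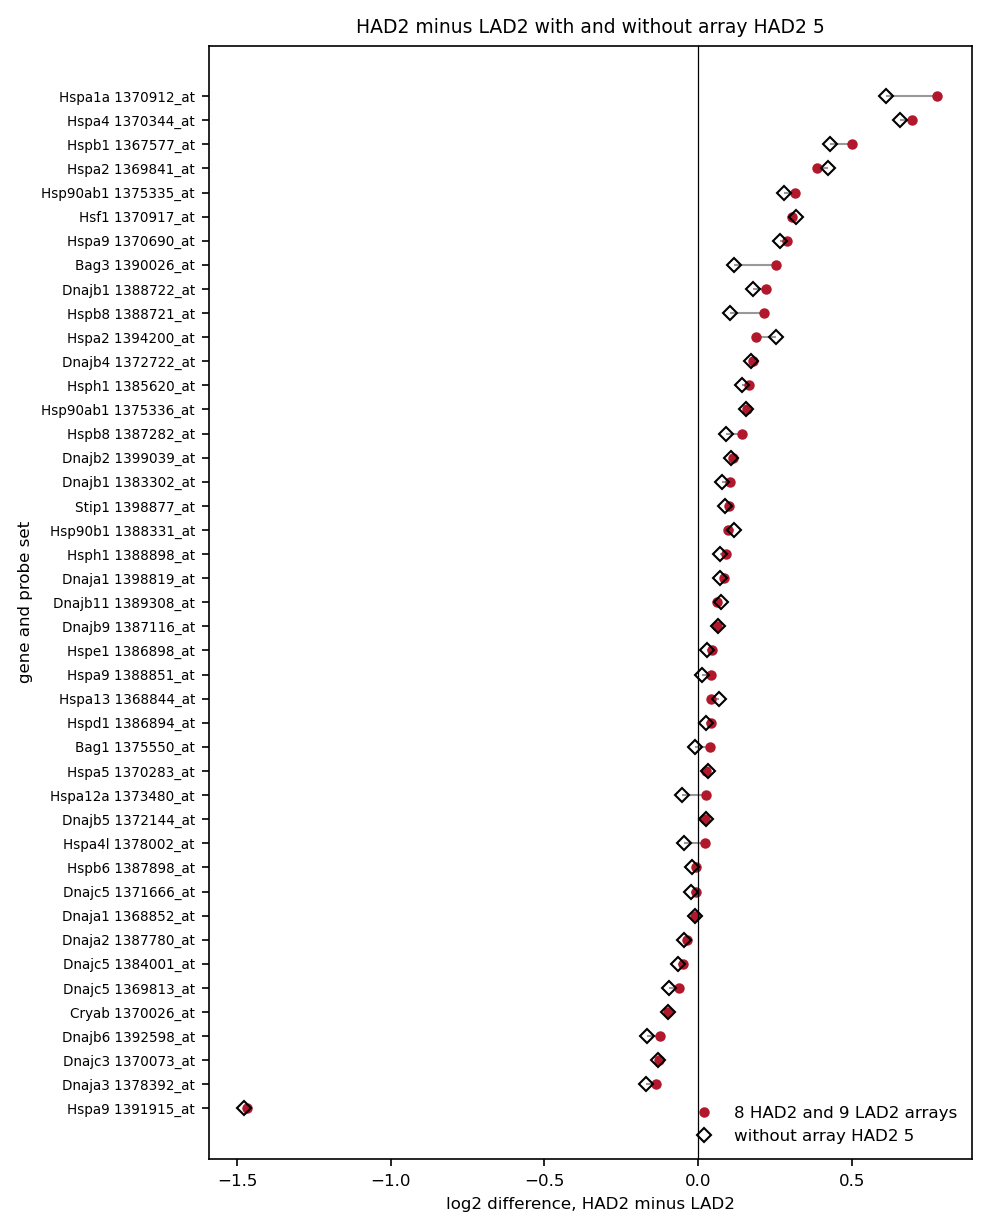
HAD2 minus LAD2 difference in log2 signal of the 43 tested member probe sets with all arrays (circles) and without HAD2 5 (diamonds). Hspa1a moves from 0.78 to 0.61 and Dnajb1 from 0.22 to 0.18, while Hsf1 stays at 0.30 to 0.32 and Hspa9 1391915_at at -1.47 to -1.48.

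Whether heat shock genes varied together from animal to animal within lines was also examined. Deviations of Hspa1a from its line mean were set against those of Dnajb1, Hspb1, Hsph1, Bag3, Dnaja1 and Hspa5 in each pair (30 relations, adjusted together). In HAD2/LAD2 (n = 17) Bag3 gave r = 0.79 (permutation p = 0.00023, adjusted 0.0017) and rho = 0.62 (p = 0.0099, adjusted 0.0498), and r = 0.56 without HAD2 5 and HAD2 8. Dnajb1 gave r = 0.61 (permutation p = 0.0026, adjusted 0.0132) and rho = 0.58 (p = 0.0171, adjusted 0.0733), and r = 0.46 without those arrays. Hsph1 gave r = 0.54 (adjusted p = 0.0686), Hspb1 r = 0.52 (adjusted p = 0.118), and Hspa5 and Dnaja1 r = -0.24 and -0.19. No relation passed in HAD1/LAD1 (lowest permutation adjusted p for r = 0.0946, Dnajb1), AA/ANA (0.238) or sP/sNP (0.195), where Bag3 gave r of 0.47, 0.33 and -0.07.

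In P/NP the arrays fell into 2 clusters by Bag3, 5 arrays (2 P and 3 NP) that deviated from their line mean by -1.67 to -0.85 and 14 that deviated by -0.21 or lay above, so no pooled value is given. The 14 arrays were chosen after the values were seen, and Bag3, which made the split, was not tested in them. For Hspa1a the 5 arrays deviated by -1.58 to -0.11 and the 14 by -0.26 to 0.84, so the split also narrowed Hspa1a. The p-values for the 14 arrays describe this chosen subset only and are no independent test. Of 5 relations with Hspa1a in the 14 arrays, 3 passed for both measures. Hspa5 went against Hspa1a (r = -0.85, permutation p = 0.00033, adjusted 0.00165; rho = -0.87, p = 9e-05, adjusted 0.00045; r = -0.77 without P 5 and NP 7). Hsph1 rose with it (r = 0.68, permutation p = 0.00934, adjusted 0.0205; rho = 0.72, p = 0.00471, adjusted 0.0118; r = 0.61 without those arrays), as did Dnajb1 (r = 0.66, permutation p = 0.0123, adjusted 0.0205; rho = 0.70, p = 0.00716, adjusted 0.0119; r = 0.50). Hspb1 (r = 0.42) and Dnaja1 (r = 0.51) did not pass. Over all 19 arrays, with the 2 clusters pooled, Hspb1 and Dnaja1 passed for both measures, Hsph1 for rho only and Dnajb1 for neither. Which of these genes passed thus depended on the split.

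The level of Th varied from 8.23 to 14.95 among the same 14 arrays and was set against 6 genes. Here too the p-values describe the chosen subset only. Hspa5 rose with Th (r = 0.74, permutation p = 0.00145, adjusted 0.0087; rho = 0.85, p = 0.00022, adjusted 0.00132; r = 0.92 without P 8 and NP 8). Hspa1a fell as Th rose (r = -0.69, permutation p = 0.00398, adjusted 0.0119; rho = -0.73, p = 0.00353, adjusted 0.00999; r = -0.65 without those arrays), as did Hsph1 (r = -0.65, permutation p = 0.00856, adjusted 0.0171; rho = -0.70, p = 0.00666, adjusted 0.00999; r = -0.75). Dnajb1 passed for rho but not for r (rho = -0.72, permutation adjusted p = 0.00999; r = -0.51, adjusted p = 0.0901). Hspb1 (r = -0.49) and Dnaja1 (r = -0.29) did not pass for either measure. The part of dopamine neuron content in the relations with Hspa1a was not tested.

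**Figure D5:**
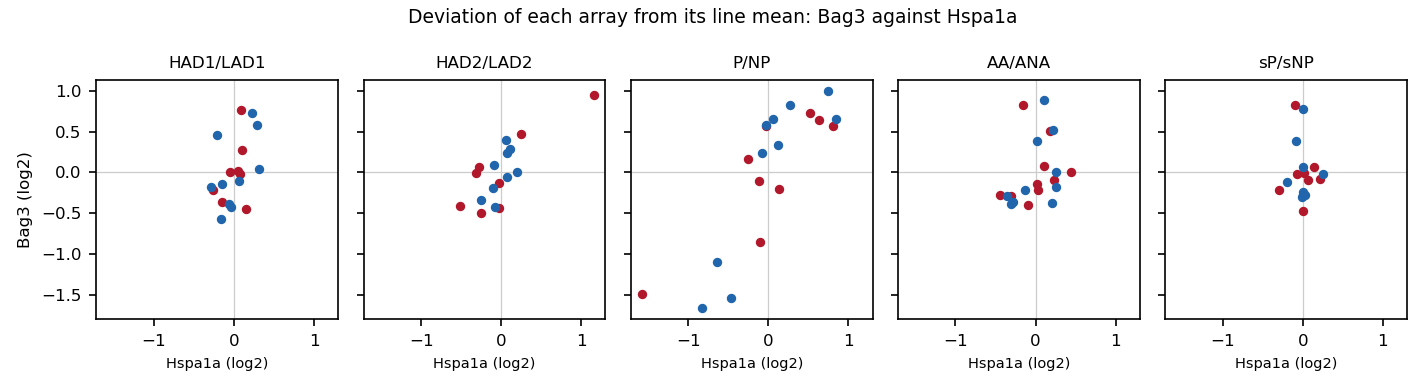
Bag3 against Hspa1a in 5 panels, 1 per pair, as deviations of log2 signal from the line mean, 1 point per array (red high-consumption, blue low-consumption line). HAD2/LAD2 has r = 0.79, and in P/NP 5 arrays lie at Bag3 deviations of -1.67 to -0.85, apart from the other 14.

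Other genes of chaperone biology, listed by role, were read by 1 probe set each, the tested one with the highest mean. None of 20 HSP90 and HSP70 co-chaperones passed in limma in HAD1/LAD1, HAD2/LAD2 or AA/ANA (medians 0.02, 0.03 and -0.003). Of 19 further DNAJ genes, 4 rose in HAD2/LAD2 (3.38% of all probe sets did), with differences of 0.52 for Dnajb14, 0.19 for Dnajc1, 0.17 for Dnajc7 and 0.15 for Dnajc27, and Dnajc18 fell by 0.24 (2.76% of all probe sets fell). Second tested probe sets had 0.08 for Dnajb14 (limma adjusted p = 0.794) and -0.03 for Dnajc7 (adjusted p = 0.95), and Dnajc7 did not pass without HAD2 5 (adjusted p = 0.0722). Of 12 subunits of the TRiC chaperonin and prefoldin, which fold actin and tubulin, Cct7 was higher in HAD2 by 0.16 (limma adjusted p = 0.0122) and Cct6a was lower in AA by 0.15 (adjusted p = 0.0330), while a second Cct6a probe set had 0.02 (adjusted p = 0.975). Serpinh1, the collagen chaperone, rose by 0.29 in HAD2 (limma adjusted p = 0.0244), 1 of 8 other small heat shock proteins, heat shock factors and extracellular chaperones. Without HAD2 5, Cct7 had 0.17 and Serpinh1 0.30, and both passed.

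In the endoplasmic reticulum, 25 further chaperones and unfolded protein response genes were tested. In HAD1/LAD1, 2 were called, both higher, where 4.92% of all probe sets passed. In HAD2/LAD2, 1 was higher and 1 lower, where 6.15% passed. The median differences of the list were 0.005 and 0.06 in these pairs. Sdf2l1, a stress-induced partner of Hspa5 and Dnajb11, was higher in both HAD lines. It ran from 10.48 to 10.88 in HAD2 and from 9.85 to 10.14 in LAD2, without overlap, and the difference was 0.57 ± 0.06 (limma adjusted p = 2e-11), and 0.59 without HAD2 5. In HAD1 it ran from 11.45 to 11.82 and in LAD1 from 10.96 to 11.57, with a difference of 0.43 ± 0.06 (limma adjusted p = 1.4e-07). Pdia4, a disulfide isomerase, rose by 0.32 ± 0.07 in HAD1 (adjusted p = 0.00117). Hyou1, the HSP110-type exchange factor of this compartment, fell by 1.15 in HAD2 (limma adjusted p = 2.6e-10), with HAD2 arrays from 6.68 to 8.97 and LAD2 arrays from 8.78 to 9.42. Without HAD2 5, its lowest array, the difference was -0.98 (limma adjusted p = 2.3e-09). Of 9 further mitochondrial chaperones and proteases, Timm44, which anchors Hspa9 to the import channel, was lower in HAD1 by 0.30 (limma adjusted p = 0.00079) and none was called in HAD2/LAD2.

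Markers of cell types and states were read beside the members. None of 17 dopamine neuron markers passed in HAD1/LAD1, HAD2/LAD2 or AA/ANA, and none of 9 immediate early genes, 12 glucocorticoid response genes or 11 astrocyte markers. The same holds for 12 meningeal, 3 choroid plexus and 2 blood markers. For dopamine neuron markers the test is weak, because the spread is shared with P and NP, where Th varied widely. The SE of Th was 0.44 in HAD1/LAD1, 0.45 in HAD2/LAD2 and 0.41 in AA/ANA. Ddc differed by -0.69 ± 0.33 in HAD1/LAD1 (limma adjusted p = 0.320), and Th, Slc6a3 and Slc18a2 by -0.01, -0.06 and 0.003. Ddc ran from 12.29 to 13.51 in HAD1 (median 12.59) and from 13.16 to 13.88 in LAD1 (median 13.49). Of 18 endothelial and pericyte markers, 4 were higher and 2 lower in HAD2, led by Abcb1a at 0.60 and Emcn at -0.49, where 6.15% of all probe sets passed. The mean log2 signal of that list ran from 9.04 to 9.32 in HAD2 and from 9.01 to 9.13 in LAD2. Of 11 microglia markers 1 rose in HAD2, and of 15 oligodendrocyte markers 1 fell, Opalin by 0.33. Without HAD2 5 no oligodendrocyte marker passed (lowest limma adjusted p = 0.0853). In HAD1/LAD1, where 4.92% of all probe sets passed, 1 endothelial marker rose and 1 fell, 2 oligodendrocyte markers rose and 1 microglia marker fell. In AA/ANA, where 3.94% passed, 2 endothelial and pericyte markers rose, with 1 of 12 neuron markers, and the endothelial list ran from 9.25 to 9.56 in AA and from 9.27 to 9.49 in ANA. Their part in the member results was not tested.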

How the data were processed

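Per the submitters' processing notes, the authors' deposited values are RMA signals on the log2 scale, 1 per probe set and array; the software version is not given in the sources used here. RNA came from Trizol and RNeasy extraction, per the labels' protocols. Groups came from the labels. Gene names came from the platform annotation, which gives 20826 probe sets 1 symbol, 436 several and 9780 none; 57 control probe sets were left out. The 37 members and all lists were chosen with earlier results of these data known.

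Probe sets whose highest line mean reached the 40th percentile of all values were fitted in limma 3.58.1 (R 4.3.3; 10 line means, 81 residual degrees of freedom, eBayes), with Benjamini-Hochberg adjustment over all probe sets tested and a threshold of 0.05. Precision is limited by the 8 to 10 arrays of a line. On data simulated for HAD2/LAD2 over 21185 probe sets, 38%, 96%, 100% and 100% of probe sets changed by 0.25, 0.5, 1 and 2 (log2) were recovered, and 4 of 171 calls were false. Whether these rates hold for the measured arrays, where the spread of a probe set can differ between lines, was not tested. Correlations used deviations from line means and 100000 permutations (scipy 1.17.1). Named genes were all members, with full values for probe sets called in any comparison, up to 4 called genes per pathway list and pair, and up to 3 per marker list.

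Replicate numbers are shared by lines of P/NP and sP/sNP, and arrays with the same number were not treated as pairs in the main fit. Alternatives were the floor, quantile normalization, median centring, each pair fitted alone, 1 probe set per gene, an intensity trend, array weights, the number as a block, the main array sets, leaving out each array, and, added after seeing the data, the HAD and LAD arrays alone and Gapdh as a covariate.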

Additional observations from a re-analysis of the deposited data

Results flagged for a closer look

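Single arrays lay far from the rest of their line in 15 of 130 cases examined (13 probe sets in 10 lines). For independent normal values chance gives about 1 in 20. Probe sets on an array are not independent, and the members were chosen with earlier results of these data known. The count is therefore no test of an excess. For Hspa1a these were HAD2 5 at 10.82 (others 9.15 to 9.91), P 10 at 7.05 (8.37 to 9.44) and sNP 2 at 7.90 (7.44 to 7.66). For Hspb1 it was sNP 9 at 10.04 (8.57 to 9.17), for Bag3 sP 2 at 10.48 (9.17 to 9.72), and for Hsf1 LAD1 31 at 7.77 (7.36 to 7.55). Dnajb4 was low in HAD2 2 at 12.78 (12.99 to 13.08), in HAD1 21 at 12.56 (12.76 to 12.88) and in LAD1 32 at 12.59 (12.75 to 12.93). Hspa9 1391915_at was high in LAD1 37 at 9.12 (7.52 to 8.26) and in ANA 20 at 8.43 (6.92 to 7.50), and Hspa9 1370690_at in sP 2 at 10.44 (9.84 to 10.08). Dnaja1 was high in ANA 20 at 12.88 (12.60 to 12.73). Hspa5 was low in LAD2 18 at 13.15 (13.39 to 13.53) and high in HAD1 27 at 13.59 (13.47 to 13.52).

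The difference between lines was called as dependent on the pair for 7 of the 43 member probe sets and 8.26% of all probe sets, by the moderated F test in limma: Hspa9 1391915_at (adjusted p = 4.2e-09), Hspa1a (0.00628), Dnajb4 (0.00661), Hsf1 (0.0170), Hspa4 (0.0350), Hspb1 (0.0407) and Hspa9 1370690_at (0.0453). Hspa4, Hspb1 and 1370690_at did not pass without HAD2 5, nor Hsf1 without HAD2 2. Hspb1 and 1370690_at lost the call without any 1 of 25 and of 26 arrays, respectively.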

How the results depend on the processing

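Over 16 called results and 171 alternatives other than leaving out single arrays, 161 kept their direction and call, 10 lost the call and none reversed. Leaving out single arrays was counted apart. Dnajb1 in HAD2/LAD2 lost its call without any 1 of 5 arrays. For dependence on the pair, Hspa9 1370690_at lost it without any 1 of 26 arrays and Hspb1 without any 1 of 25. Hspa4 lost it without any 1 of 6 arrays and Hsf1 without 1 array. The count of called members in HAD1/LAD1 (1) was 2 with quantile normalization, with the pair fitted alone, with the replicate block, with the HAD and LAD arrays alone and with the Gapdh covariate, 3 with array weights, 0 with 1 probe set per gene, and 1 to 2 when single arrays were left out. With array weights the count was 5 in P/NP (0), 3 in AA/ANA (1), 3 in the average (1) and 8 in HAD2/LAD2 without HAD2 5 (5). In AA/ANA it was 0 with the pair fitted alone and 1 to 2 without single arrays (2 without AA 19). Leaving out single arrays gave 5 to 8 in HAD2/LAD2 (6), 5 to 7 in HAD2/LAD2 without HAD2 5, and 4 to 8 for dependence on the pair (7), 4 without HAD2 5. Among all probe sets, array weights called 1179 higher and 503 lower in P/NP (0 in the main setting), 968 against 583 higher and 730 against 459 lower in HAD1/LAD1, 1062 and 885 in AA/ANA (460 and 375), 976 and 594 in the average (248 and 207), 1216 and 787 in HAD2/LAD2 without HAD2 5 (727 and 569), and 5106 for dependence (1749). With each pair fitted alone AA/ANA had 174 and 207. With 1 probe set per gene, where fewer were tested, the counts were 231 and 196 (HAD1/LAD1), 372 and 233 (HAD2/LAD2), 165 and 161 in AA/ANA, 85 and 70 in the average and 701 for dependence. The causes were not tested.

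Arrays with the same number were not treated as pairs in the main setting. Their correlations ran from -0.69 to 0.67 over 9 pairs in P/NP, with 6 above 0.1. In sP/sNP they ran from -0.40 to 0.30 over 8 pairs, with 1 above 0.1. So few correlations of such a range do not settle whether the numbers mark pairs. With the replicate block, 2 members were called in HAD1/LAD1, 6 in HAD2/LAD2, 1 in AA/ANA, 0 in P/NP and sP/sNP, and 23 of all probe sets were called in P/NP. Probe sets near background limit low members, and the 5 below the floor had no test.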
